A study of Mus musculus with 6 samples.

Results

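Slc16a3, Slc2a1, Ldha, Hk2, Eno1, Ankrd37, Bnip3, Egln3, Pdk1 and Vegfa are genes of glucose use and of the response to low oxygen. They are 10 of the 31053 mouse genes measured here in single cells of lung tumours. They were taken by symbol, and they were chosen by levels seen in earlier work on these same cells, in which Slc16a3, Ldha and Eno1 were higher in 1 group of tumour cells. Their levels by cell group are therefore a description and carry no test. In the 12183 cells kept, the 10 genes gave 310975 UMIs, the counted molecules of mRNA.

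The cells came from tumours of 6 mice, whose shared alleles included Lkb1XTR/XTR and a Rosa26LSL-tdTomato reporter, in which Lenti-Cre delivered to the airways started tumours that grew for 20 weeks. In the XTR allele of Lkb1 (gene symbol Stk11), Cre inverts a gene trap so that GFP is transcribed in place of full-length Lkb1, and FLPo-ERT2 removes the trap once tamoxifen is given. The 3 Restored mice carried FLPo-ERT2 and received tamoxifen in doses of 4 mg during the last 2 weeks. Of the 3 NonRestored mice, 1 lacked FLPo-ERT2 and received tamoxifen, 1 lacked it and received vehicle, and 1 carried it and received vehicle. Every mouse thus carried both XTR alleles and Cre-started tumours, both cohorts held males and females, and by the study's methods the mice were young adults when tumours were started. Sorting had removed cells with blood, endothelial and dead-cell stains.

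The counts form 1 matrix in which no cell is tied to a mouse, so the whole data set was handled as 1 sample without replicates. Cells were split instead by their own transcripts. GFP-positive cells held at least 1 GFP UMI and no Stk11 UMI, Stk11-positive cells the reverse, and cells with neither or both were left out of the split. Mouse and class cannot be told apart, and neither class is a cohort. All intervals are 95% intervals that cover counting error only, and they say nothing of the spread between mice.

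Glucose enters the cell through the transporter Slc2a1 (GLUT1), hexokinases such as Hk2 phosphorylate it, Eno1 (enolase) acts late in glycolysis, and Ldha turns pyruvate into lactate, which Slc16a3 (MCT4) exports. Pdk1 holds pyruvate back from oxidation in the mitochondria. Under low oxygen the prolyl hydroxylases, Egln3 among them, act less on hypoxia-inducible factor (HIF), which then binds short DNA elements near genes such as Vegfa (a growth factor for blood vessels), Bnip3 (mitophagy) and Ankrd37. In the lung, alveolar type II (ATII) cells make surfactant, alveolar type I (ATI) cells form the thin gas-exchange surface, and keratin-rich cells appear in injury and in tumours.

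The core of a HIF-binding element is ACGTG or GCGTG. The windows of 250 bases ahead of the annotated transcript starts were therefore read for these letters on both strands, so also for CACGT and CACGC, with CACGTG counted as 1 match where both strands overlap. Among 15 windows of the 10 genes, 13 held at least 1 match, but a pair of Eno1 windows overlap and share their matches. Of 32851 such windows over all genes, 38.6% held at least 1 match, 13.5% at least 2 and 4.65% at least 3. In 10 of the 15 windows the first 30 bases after the start were also found in an annotated transcript of the gene, the 4 shown here among them, but in no window of Egln3 or Vegfa. The members' windows held 38.4% to 73.6% G and C, against a median of 52.4% over all windows. The part of base composition in these counts was not tested. A match is a run of letters and not a measured binding site. The windows of 4 genes are shown because their levels part ways below: keratin-rich cells with Slc16a3 transcripts held more Ankrd37 and Bnip3, and Hk2 less so. They come from RefSeq on GRCm38.p6, read in the direction of transcription, with the matches in capitals: chr11:120948817-120949066 on the plus strand for Slc16a3, chr8:45999851-46000100 on the minus strand for Ankrd37, chr7:138909507-138909756 on the minus strand for Bnip3 and chr6:82774455-82774704 on the minus strand for Hk2.
Slc16a3: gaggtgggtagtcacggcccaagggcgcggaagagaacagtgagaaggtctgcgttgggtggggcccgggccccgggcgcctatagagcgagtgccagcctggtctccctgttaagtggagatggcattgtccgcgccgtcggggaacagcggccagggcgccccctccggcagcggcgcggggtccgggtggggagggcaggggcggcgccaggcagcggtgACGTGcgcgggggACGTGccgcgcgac
Ankrd37: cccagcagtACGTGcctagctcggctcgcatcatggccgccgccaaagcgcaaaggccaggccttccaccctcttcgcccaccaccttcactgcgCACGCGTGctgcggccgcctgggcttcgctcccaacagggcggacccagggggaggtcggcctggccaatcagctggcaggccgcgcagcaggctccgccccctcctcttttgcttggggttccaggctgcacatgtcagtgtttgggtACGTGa
Bnip3: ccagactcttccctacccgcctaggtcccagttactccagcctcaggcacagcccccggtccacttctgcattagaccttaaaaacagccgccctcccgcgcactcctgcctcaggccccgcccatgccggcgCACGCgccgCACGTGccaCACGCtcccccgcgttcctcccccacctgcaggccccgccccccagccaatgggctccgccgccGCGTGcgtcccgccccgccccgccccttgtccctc
Hk2: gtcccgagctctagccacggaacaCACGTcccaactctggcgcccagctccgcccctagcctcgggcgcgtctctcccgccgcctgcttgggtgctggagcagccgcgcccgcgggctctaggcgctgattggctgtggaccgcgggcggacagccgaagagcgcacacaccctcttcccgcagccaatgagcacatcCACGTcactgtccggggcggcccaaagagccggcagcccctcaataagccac
The Slc16a3 window holds 2 matches, both ACGTG, the nearer ending 10 bases ahead of the start. Ankrd37 has 3, of which the nearest ends 2 bases ahead of the start, Bnip3 has 4 and Hk2 has 2. The letters therefore occur ahead of Hk2 as well as ahead of the genes it parted from. By the GENCODE M21 annotation of the same build, Slc16a3 (ENSMUSG00000025161) runs from 120948480 to 120960868 of chromosome 11, so that its window lies inside the longest gene model, and Ankrd37 (ENSMUSG00000050914) from 45996902 to 46005707 of chromosome 8, likewise around its window. Bnip3 (ENSMUSG00000078566) ends at 138909519 of chromosome 7 and Hk2 (ENSMUSG00000000628) at 82774454 of chromosome 6, each at or next to the inner edge of its window.

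Gates were set on UMIs per 10000 UMIs of the cell, the scale of all levels below. The ATII gate (Sftpc at least 500, Hopx under 2, Krt8 plus Krt18 under 50) held 6975 cells, of which 1742 were GFP-positive and 2353 Stk11-positive. The ATI gate (Hopx at least 15, Krt8 plus Krt18 under 50) held 956 cells, with 242 and 266. The keratin-high gate (Krt8 plus Krt18 at least 50) held 1183 cells, with 642 and 165, and 3069 cells met no gate. The gates carried their markers: Sftpb and Lyz2 stood at 120 and 136 in the ATII gate, Ager and Aqp5 at 59.0 and 24.8 in the ATI gate, and Krt19 and Cldn4 at 19.2 and 4.28 in the keratin-high gate. The ATI gate also held ATII transcripts: Sftpc stood at 475 and the summed ATII markers at 585, against 1553 and 2150 in the ATII gate. Summed markers of endothelial, fibroblast and myeloid cells were at most 0.309 in any of the 3 gates, against 60.1, 509 and 66.5 in ungated cells set apart by those markers, and the defining Pecam1, Col1a1 and Ptprc reached at most 0.0101, 0.0395 and 0.00155 in a gate. Median depth was 21660 UMIs in the ATII gate, 11797 in the ATI gate and 23490 in the keratin-high gate.

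Slc16a3, the lactate exporter, had the widest range of levels among the members with enough UMIs. In GFP-positive and Stk11-positive cells its level was 0.0246 (117 UMIs) and 0.00319 (20 UMIs) in the ATII gate. The levels were 0.0321 (14 UMIs) and 0.0136 (6 UMIs) in the ATI gate and 0.273 (542 UMIs) and 0.0926 (43 UMIs) in the keratin-high gate. Both keratin-high classes thus stood above both classes of the other gates. Over all cells of a gate, Slc16a3 was 19.0-fold higher in keratin-high than in ATII-gate cells (16.2 to 22.5), and the keratin-high gate, 9.71% of the kept cells, held 50.7% of its UMIs. Within a gate, the class ratio was 7.72 (4.78 to 13.1) in the ATII gate, 2.36 (0.852 to 7.49) in the ATI gate and 2.95 (2.16 to 4.12) in the keratin-high gate. The classes of the ATII gate also differed in other markers: Krt8 stood at 6.94 in GFP-positive and 3.53 in Stk11-positive cells, the summed markers of transitional cells at 35.7 and 17.8, and Lyz2 at 96.5 and 168. In the ATI gate the summed ATII markers stood at 477 in GFP-positive and 780 in Stk11-positive cells, and Lyz2 at 2.95 and 15.8. The part of these differences in the class ratios was not tested.

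The keratin-high class ratio of Slc16a3 varied with how cells of different depth were weighted. Without the 6% deepest cells of the gate the log2 ratio was 1.20 (0.75 to 1.69) in place of 1.56, and as a mean in which every cell weighs the same it was 1.33. With every cell thinned to 5000 UMIs and the classes kept, the level rested on 81 and 13 UMIs and the log2 ratio was 0.68 (-0.17 to 1.65), an interval that holds both 0 and 1.56. When the classes too were set on the thinned counts, it rested on 33 UMIs in 234 cells and 8 UMIs in 55 cells, and the log2 ratio was -0.045 (-1.19 to 1.28), an interval below 1.56. At equal depth a difference between the classes in keratin-high cells was therefore not detectable, and what moved the ratio was not tested. The ATII-gate ratio stayed between 2.78 and 3.89 on the log2 scale under each alternative tried. Thinned with the classes kept it was 2.92 (1.525 to 4.646). The 3.89 came with the classes thinned too, on fewer than 20 UMIs over both classes, with an interval of 1.105 to 9.316. The thinned share of cells with a Slc16a3 UMI was 1.504% of 1729 GFP-positive and 0.215% of 2331 Stk11-positive ATII-gate cells (4.99% and 0.638% before thinning, at median depths of 25473 and 25078 UMIs). Among keratin-high cells the thinned shares were 9.62% of 634 and 7.36% of 163 (28.3% and 15.8% before thinning, at 28318 and 24569 UMIs). Cells with myeloid markers gave 19.7% of 66.

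**Figure D1:**
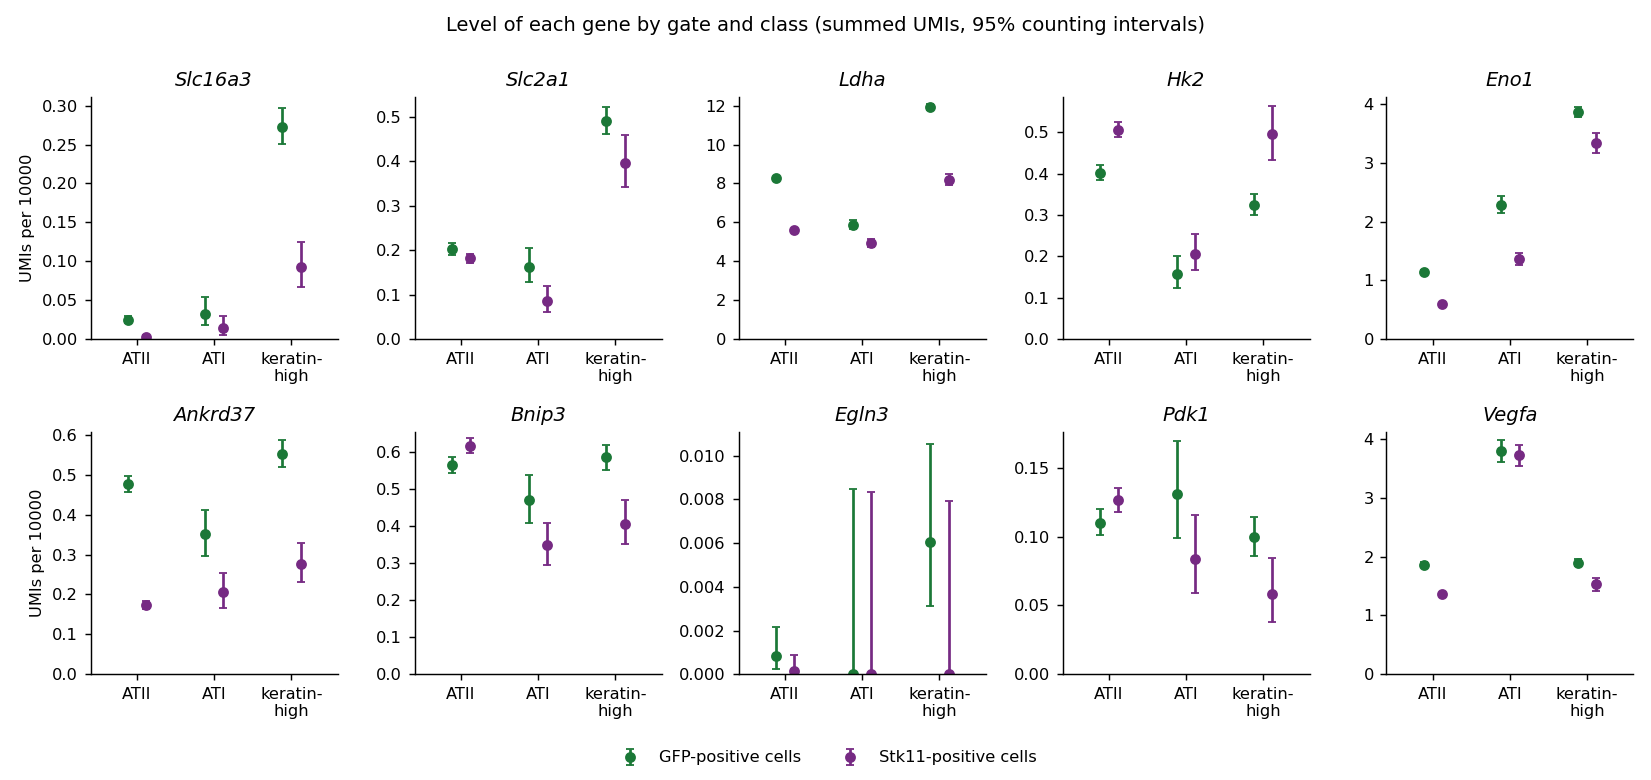
Level of each of the 10 genes in UMIs per 10000 (vertical axes from 0, each gene with its own scale) in the ATII, ATI and keratin-high gates; points are summed over GFP-positive (green) or Stk11-positive (purple) cells of 1 data set, bars are 95% counting intervals. Slc16a3 stands at 0.273 and 0.0926 in keratin-high cells and at 0.0321 or below elsewhere, while Vegfa is highest in the ATI gate and Hk2 lowest there.

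At the entry to glycolysis, Slc2a1 and Hk2 went different ways. Slc2a1 stood at 0.202 in GFP-positive and 0.181 in Stk11-positive ATII-gate cells, at 0.163 and 0.0861 in the ATI gate and at 0.490 and 0.396 in the keratin-high gate. Hk2 stood at 0.402 and 0.506, at 0.158 and 0.206, and at 0.325 and 0.495 in the same order. Glucose transporter transcripts were thus highest in keratin-high cells, 2.55-fold above the ATII gate (2.39 to 2.71), where Hk2 was 0.754-fold (0.707 to 0.804). The ATI gate was lowest for both, at 0.595-fold (0.500 to 0.703) and 0.378-fold (0.331 to 0.430) of the ATII gate.

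Hk2 was the member with a lower summed level in GFP-positive cells of each gate. The class ratio was 0.795 (0.750 to 0.841) in the ATII gate, 0.767 (0.553 to 1.06) in the ATI gate, where the interval holds 1, and 0.655 (0.563 to 0.765) in the keratin-high gate. In the keratin-high gate, 10 of the 165 Stk11-positive cells held 42.2% of the 230 Hk2 UMIs, and 1 cell held 32. Without the 6% deepest cells the keratin-high log2 ratio was -0.24 in place of -0.61, with keratins of at least 100 it was 0.12, and thinned to 5000 UMIs it was 0.27 with the classes kept (122 and 26 UMIs) and 0.76 with the classes thinned too (36 and 5 UMIs), so its direction there was not stable. In the ATII gate the 10 Stk11-positive cells with most Hk2 held 3.41% of its UMIs, and the log2 ratio stayed below 0 under each alternative tried. The ATI direction, on 69 and 91 UMIs, turned under at least 1 alternative, where the log2 ratio reached 0.46.

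Further down the pathway, Eno1 and Ldha were higher in GFP-positive cells of each gate. Eno1 stood at 1.14 and 0.591 in GFP-positive and Stk11-positive ATII-gate cells, at 2.28 and 1.36 in the ATI gate and at 3.87 and 3.34 in the keratin-high gate. Ldha stood at 8.26 and 5.58, at 5.88 and 4.93, and at 11.9 and 8.20. The class ratio of Eno1 was 1.94 (1.86 to 2.02), 1.68 (1.52 to 1.86) and 1.16 (1.10 to 1.23), narrowing toward the gate with the most Eno1, and that of Ldha was 1.48 (1.458 to 1.501), 1.19 (1.13 to 1.26) and 1.46 (1.41 to 1.51). Gate moved Eno1 more than class did: keratin-high cells held 4.64-fold (4.52 to 4.76) and ATI-gate cells 2.16-fold (2.07 to 2.26) the ATII level. Ldha rose less, 1.67-fold (1.65 to 1.69) in keratin-high cells, and was at 0.781-fold (0.762 to 0.800) in the ATI gate. Eno1 has a near-identical copy, Eno1b, and reads that fit both could be lost or split in the authors' counting, so its level is uncertain. Pdk1, on 57 and 37 UMIs in the ATI gate and 198 and 27 in the keratin-high gate, had class ratios of 1.56 (1.01 to 2.43) and 1.71 (1.14 to 2.67) there and of 0.872 (0.779 to 0.975) in the ATII gate, where the log2 ratio of -0.20 turned to 0.035 with cells thinned and the classes kept. The keratin-high log2 ratio of 0.78 was 0.085 under that same alternative, on 33 and 8 UMIs, short of 1.5-fold.

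The genes known chiefly as HIF targets did not share 1 pattern either. Ankrd37 stood at 0.476 and 0.173 in GFP-positive and Stk11-positive ATII-gate cells, at 0.351 and 0.206 in the ATI gate and at 0.552 and 0.276 in the keratin-high gate, with class ratios of 2.76 (2.57 to 2.97), 1.70 (1.30 to 2.23) and 2.00 (1.66 to 2.42). With stricter gates the ATI log2 ratio of 0.77 was 0.12, on 18 and 35 UMIs. Among the members with at least 20 UMIs, Ankrd37 had the largest class ratio after Slc16a3 in the ATII and keratin-high gates. Bnip3 had class ratios of 0.917 (0.872 to 0.963) in the ATII gate, 1.35 (1.09 to 1.67) in the ATI gate and 1.44 (1.23 to 1.69) in the keratin-high gate, and its direction turned in 2 gates where cells and classes were thinned, to a log2 ratio of 0.094 in the ATII gate and of -0.48 in the keratin-high gate. Vegfa was highest in the ATI gate, at 3.79 and 3.72 in the 2 classes there against 1.86 and 1.36 in the ATII gate and 1.90 and 1.53 in the keratin-high gate. Its ATI level was 2.43-fold (2.36 to 2.50) that of the ATII gate and its class ratio there was 1.02 (0.953 to 1.09). Ankrd37 lies over Ufsp2 and Lrp2bp on the other strand. Whether the counting used strand is not given in the sources used here, so its reads cannot be fully told apart from theirs.

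Egln3, the hydroxylase, was all but absent from the gated cells. It had 115 UMIs in all kept cells, of which 12 lay in the ATII gate, 12 in the keratin-high gate and 0 in the ATI gate. Of the rest, 80 UMIs, or 69.6% of the total, lay in cells outside the gates with endothelial (128 cells), fibroblast (261) or myeloid (77) markers, in which tdTomato, at 4.51 to 23.2, was below the 64.9 to 100.3 of the gates. The endothelial-marker cells had higher levels of Egln3 (0.189) and Ankrd37 (3.52) than the 3 gates and the fibroblast-marker and myeloid-marker cells, with a Hk2 level of 0.0196. All 12 keratin-high Egln3 UMIs were in GFP-positive cells, whereas the 165 Stk11-positive ones had 0, which at the limit of 3 counts allows a level of up to 0.00646, above the 0.00604 of the GFP-positive cells. With fewer than 20 UMIs in each comparison of classes, Egln3 enters none of the counts of classes below.

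Counted over the members with at least 20 UMIs in a comparison, 3 of 9 were at least 1.5-fold higher in GFP-positive than in Stk11-positive ATII-gate cells (Slc16a3, Ankrd37 and Eno1), where 13.0% of 13712 genes were. None was at least 1.5-fold lower, as 5.05% of genes were. In the ATI gate 5 of 9 were higher (Slc16a3, Slc2a1, Ankrd37, Eno1 and Pdk1; 9.68% of 10634 genes) and none lower (5.30% of genes). That count fell to 2 or 3 under 4 of 12 alternatives, and the log2 ratio of Slc2a1, 0.92 on 71 and 38 UMIs, was 0.11 with cells thinned and the classes kept. In the keratin-high gate 3 of 9 were higher (Slc16a3, Ankrd37 and Pdk1; 11.9% of 12086 genes) and 1, Hk2, was lower (8.01% of genes). Among ungated cells without markers of other cell types, 4 of 9 were higher, against 12.9% of genes. The median log2 ratio of the members was 0.46, 0.64 and 0.52 in the ATII, ATI and keratin-high gates, beside 0.18, 0.12 and 0.03 over all genes tested. Cycling cells, those with at least 3 UMIs over 10 proliferation genes, made up 5.68% of GFP-positive and 1.27% of Stk11-positive ATII-gate cells and 9.81% and 3.03% in the keratin-high gate. Without cycling cells the Slc16a3 log2 ratio was 1.45 in the keratin-high gate.

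**Figure D2:**
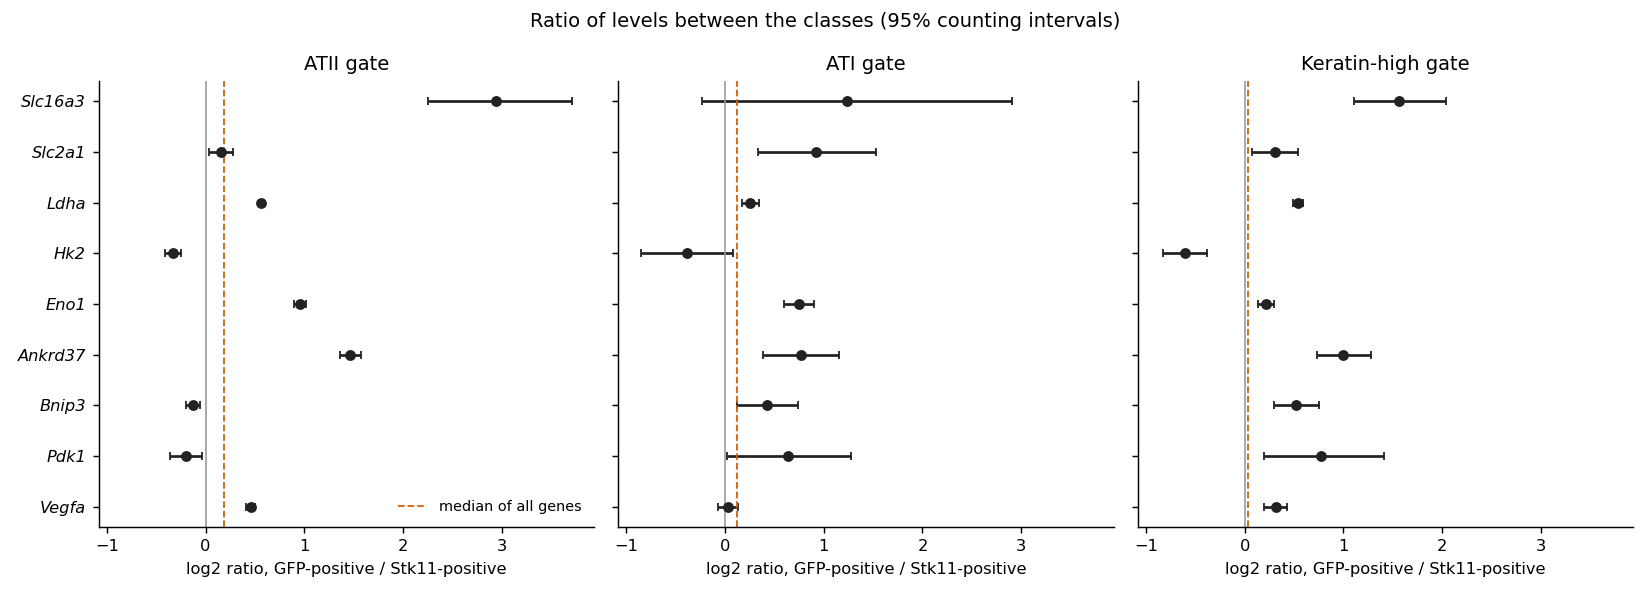
Log2 ratio of each gene's level in GFP-positive over Stk11-positive cells (horizontal axis) in the ATII, ATI and keratin-high gates, with 95% counting intervals over 1 data set; the grey line is no difference and the dashed line the median of all genes tested. Slc16a3 and Ankrd37 lie right of the dashed line in each panel and Hk2 left of it; Egln3 had too few UMIs.

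Between gates, a larger part of all genes moved, and the members are read against it. Keratin-high cells held 6 of 10 members at least 1.5-fold above the ATII gate (Slc16a3, Egln3, Eno1, Slc2a1, Ldha and Ankrd37), where 32.5% of 14646 genes were above it. In GFP-positive cells alone it was 3 of 9 (25.5% of genes) and in Stk11-positive cells alone 4 of 9 (38.2% of genes), both near the background. In the Stk11-positive cells 2 of 9, Bnip3 and Pdk1, were lower (17.4% of genes). Sftpc, which is part of the denominator of every level, stood at 1553 in the ATII gate and at 192 in the keratin-high gate. With the 10 most abundant features left out of the denominator, 4 of 10 members were at least 1.5-fold above the ATII gate over all keratin-high cells. Ldha and Ankrd37 then fell short, at log2 ratios of 0.44 and 0.39. The share of all genes was not counted with that denominator. ATI-gate cells held 3 of 9 above the ATII gate (Vegfa, Eno1 and Slc16a3; 30.1% of genes) and 2 below it (Hk2 and Slc2a1; 17.0% of genes). Slc16a3 rested on 28 UMIs in the ATI gate, its log2 ratio of 0.82 turned to -0.049 on 6 UMIs in thinned cells, and with stricter gates no ATI-gate UMI was left. Keratin-high over ATI-gate cells gave 6 of 9 higher (16.9% of genes) and 1, Vegfa at 0.471-fold (0.454 to 0.489), lower (13.1% of genes). The members' median log2 ratio was 0.71 in keratin-high over ATII, -0.32 in ATI over ATII and 1.00 in keratin-high over ATI, beside 0.31, 0.30 and 0.02 over all genes. Within classes the keratin-high over ATII median was 0.21 in GFP-positive cells, beside 0.23 over all genes, and 0.55 in Stk11-positive cells, beside 0.38. Those 3 contrasts share cells, and their values stand side by side only.

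The keratin gate cuts a graded change in Slc16a3. Over all kept cells, the Slc16a3 level was 0.0408 (181 UMIs) where Krt8 plus Krt18 lay below 5, 0.00673 between 5 and 10, 0.0280 between 10 and 25, 0.0728 between 25 and 50, 0.158 between 50 and 75 and 0.345 from 100 up. Just outside the gate, at 40 to 50, it was 0.114, and just inside, at 50 to 60, 0.125. In each bin from 5 up the GFP-positive level exceeded the Stk11-positive one: it was 0.0781 against 0.0258 between 25 and 50, 0.206 against 0.0610 between 50 and 75 and 0.387 against 0.187 from 100 up. These bins are not thinned, and for those of the keratin-high gate the limit at equal depth given above holds too. Below 5 the order was the other way, at 0.0132 on 6 UMIs against 0.0231 on 47. That lowest bin held cells with endothelial, fibroblast or myeloid markers, in which Slc16a3 stood at 0.326, 0.157 and 0.421 and of which more were Stk11-positive (19, 49 and 15 cells) than GFP-positive (1, 3 and 3). Without cells that carry such markers, a choice made after seeing the data, the Slc16a3 level was 0.00375 (14 UMIs) below 5, 0.00661 between 5 and 10, 0.0254 between 10 and 25 and 0.0712 between 25 and 50, so that it climbed from the lowest bin on. The classes then stood at 0.0135 on 6 UMIs and 0.00164 on 3 UMIs below 5. Eno1 climbed with keratin in both classes, from 0.857 and 0.530 below 5 to 4.31 and 3.88 from 100 up. Ankrd37 in Stk11-positive cells stayed between 0.172 and 0.289 over the bins, and Hk2 showed no climb in either class. At the other borders, Slc16a3 was 0.0833 just outside the ATII gate (Sftpc 400 to 500) and 0.0448 just inside, and 0.0593 just outside the ATI gate (Hopx 10 to 15) and 0.0370 just inside.

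**Figure D3:**
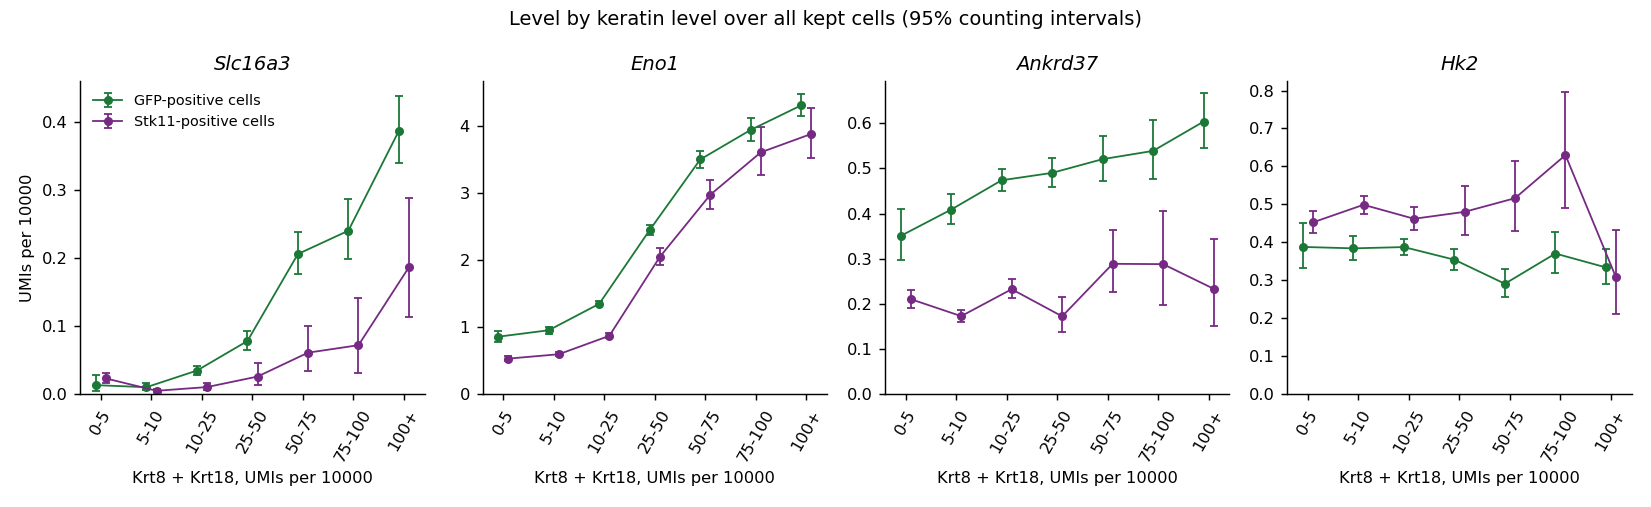
Level of Slc16a3, Eno1, Ankrd37 and Hk2 in UMIs per 10000 (vertical axes from 0) by the summed Krt8 and Krt18 level of the cell (horizontal bins), for all kept GFP-positive (green) and Stk11-positive (purple) cells, those with markers of other cell types included, with 95% counting intervals. Slc16a3 reaches 0.387 and 0.187 in the top bin, Eno1 climbs in both classes, and Hk2 does not climb.

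Within the keratin-high gate, cells with more Slc16a3 also held more of most other members. By Slc16a3 UMIs the gate splits into 919 cells with none, 124 with 1, 103 with 2 to 4 and 37 with 5 or more, and those 37 held 43.1% of the gate's Slc16a3 UMIs. Ldha stood at 9.28, 12.9, 16.0 and 20.3 in these 4 sets, Slc2a1 at 0.355, 0.528, 0.836 and 1.18, and Bnip3 at 0.427, 0.569, 0.933 and 1.33. Ankrd37 stood at 0.398, 0.582, 0.732 and 1.24, Pdk1 at 0.0724, 0.0836, 0.192 and 0.229, and Eno1 at 3.29, 4.10, 4.61 and 5.93. Each of these 6 was thus highest in the set with most Slc16a3 and lowest in the set with none. Vegfa, at 1.88, 1.82, 1.83 and 2.11, and Hk2, at 0.334, 0.410, 0.352 and 0.484, did not climb step by step. The sets also differ in depth, with medians of 22034, 27710, 28903 and 39179 UMIs, and the share of cycling cells was 5.44%, 16.1%, 7.77% and 13.5%. The part of depth and cycling in these levels was not tested.

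**Figure D4:**
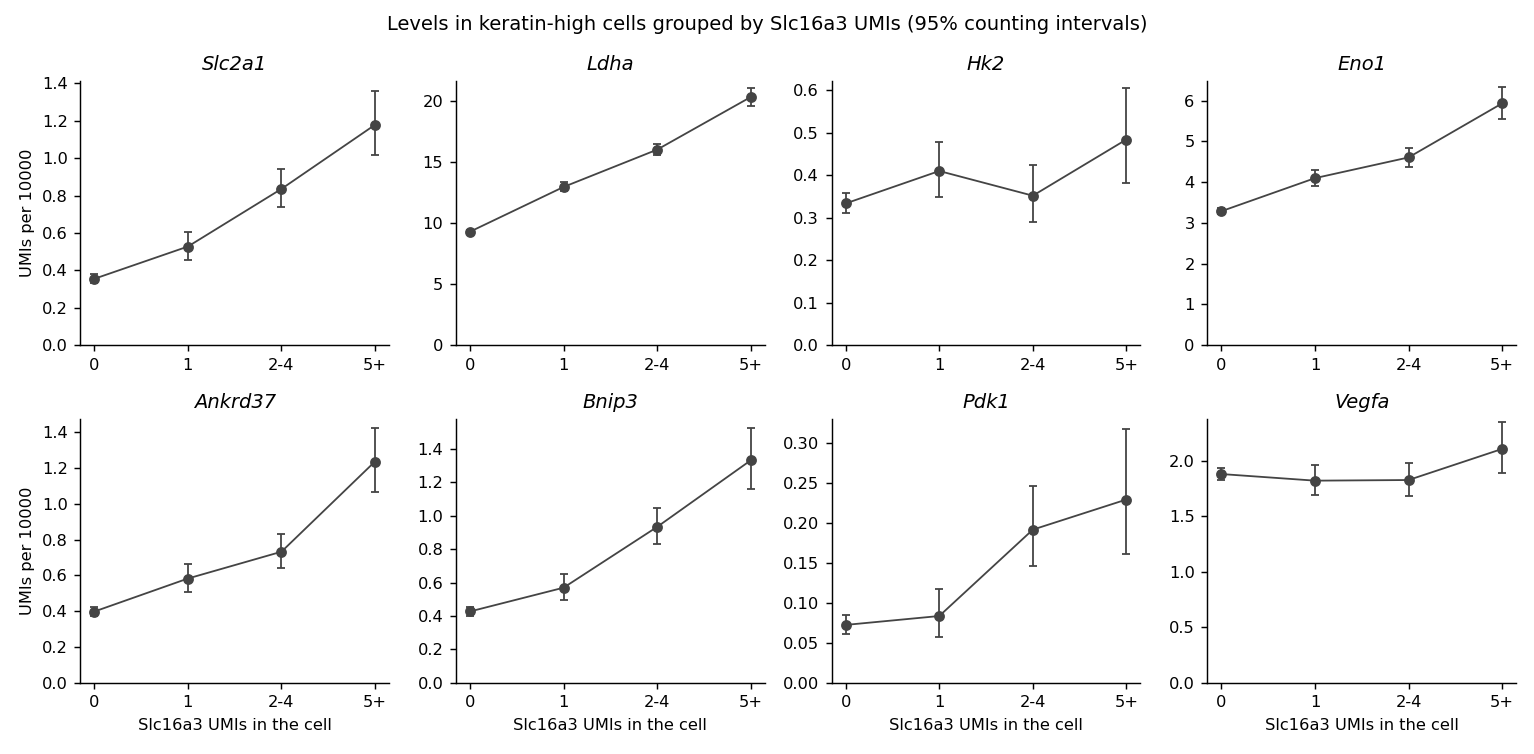
Level of 8 genes in UMIs per 10000 (vertical axes from 0) in keratin-high cells grouped by their number of Slc16a3 UMIs (0, 1, 2 to 4, 5 or more; 919, 124, 103 and 37 cells), with 95% counting intervals. Ldha goes from 9.28 to 20.3 and Bnip3 from 0.427 to 1.33, while Vegfa stays between 1.82 and 2.11.

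Few genes of the whole table went with Slc16a3 in this way. Between keratin-high cells with a Slc16a3 UMI and those without, 5 of the 8 other members with enough UMIs were at least 1.5-fold higher (Slc2a1 2.14, Pdk1 2.08, Bnip3 1.98, Ankrd37 1.90 and Ldha 1.66), where 3.55% of 12353 genes were. The members' median log2 ratio was 0.83, beside -0.03 over all genes. Restricted to GFP-positive cells the same 5 of 8 were higher (3.77% of genes), and restricted to Stk11-positive cells 4 of 8 were (9.84% of genes). In the ATII gate, 4 of 8 were higher (Ankrd37 2.89, Eno1 2.08, Pdk1 1.73 and Ldha 1.62; 16.1% of genes). In the ATI gate, with 24 cells that held a Slc16a3 UMI, 2 of 8 were higher (13.9% of 11159 genes). Bnip3 and Slc2a1 stood at 1.34 (1.20 to 1.49) and 1.46 (1.20 to 1.76) in the ATII gate, just short of 1.5-fold for Slc2a1, and Eno1 at 1.41 (1.35 to 1.46) in the keratin-high gate. Differences between the gates in these ratios were not tested.

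Thinning to 5000 UMIs a cell, which left out the 1099 shallower cells, set the same comparison at equal depth. A Bnip3 UMI was found in 42.9% (32.5% to 53.7%) of 91 keratin-high cells with Slc16a3 and in 20.5% (18.1% to 23.2%) of 999 without. For Slc2a1 the shares were 34.1% (24.5% to 44.7%) and 14.2% (12.1% to 16.5%), and for Vegfa 53.8% (43.1% to 64.4%) and 57.2% (54.0% to 60.3%). For Ankrd37 they were 28.6% (19.6% to 39.0%) and 17.9% (15.6% to 20.4%), and for Pdk1 11.0% (5.40% to 19.3%) and 4.605% (3.39% to 6.09%). Ldha was found in nearly all cells of both sets. At equal depth the intervals of Bnip3 and Slc2a1 stayed apart, whereas those of Ankrd37, Pdk1 and Vegfa overlapped. In the ATII gate Eno1 was found in 66.7% (51.6% to 79.6%) of 48 cells with Slc16a3 and in 28.7% (27.6% to 29.8%) of 6724 without, Ankrd37 in 39.6% (25.8% to 54.7%) and 11.97% (11.2% to 12.8%), and Slc2a1 in 20.8% (10.5% to 35.0%) and 8.46% (7.81% to 9.15%). There the intervals overlapped for Bnip3, at 31.2% (18.7% to 46.3%) and 24.1% (23.0% to 25.1%), for Pdk1, at 10.4% (3.47% to 22.7%) and 6.22% (5.65% to 6.82%), and for Vegfa and Hk2.

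Cell by cell the members were only loosely tied. Over thinned cells, the 45 pairs of members had a median Pearson r of 0.014 in the ATII gate (6772 cells; highest 0.14, Ldha with Eno1) and of 0.056 in the keratin-high gate (1090 cells; highest 0.22, Slc16a3 with Ldha, then 0.20, Slc16a3 with Bnip3). In the ATI gate, where Egln3 had no UMI, the 36 other pairs had a median of 0.016 (841 cells; highest 0.16). The cells share libraries and mice, and Ldha itself went with the depth a cell had before thinning (r of 0.24 in the keratin-high gate), so these weak values are given as a description. Without thinning the medians were 0.034, 0.125 and 0.044 in the same order. Of the 45 keratin-high pairs, 11 exceeded 0.1 and 9 were below 0.

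**Figure D5:**
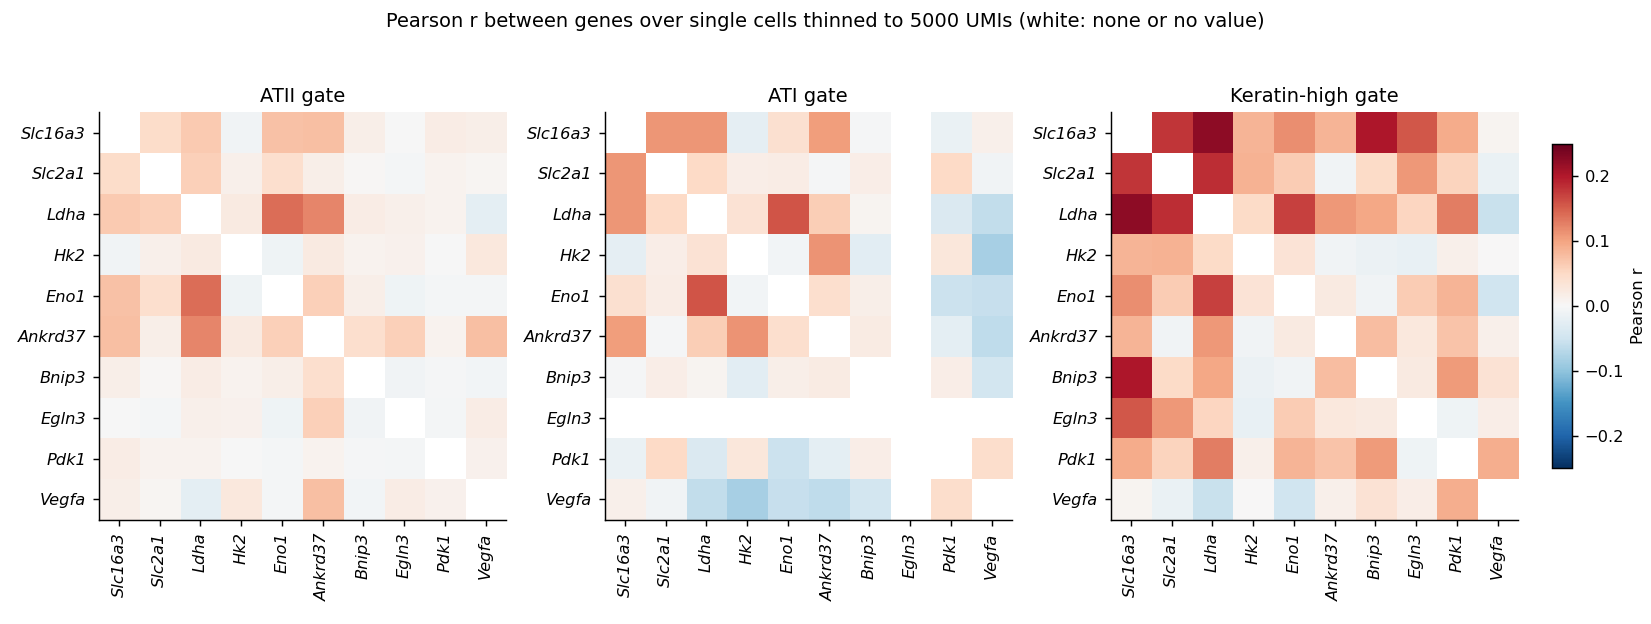
Pearson r between the 10 genes over single cells thinned to 5000 UMIs in the ATII, ATI and keratin-high gates (colour from -0.25 blue to 0.25 red; the white diagonal and, in the ATI gate, Egln3 have no value). The deepest red lies in the keratin-high gate at Slc16a3 with Ldha (0.22) and with Bnip3 (0.20), and most of the ATII panel is near 0.

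Among the genes most like the members in single cells, the first ones differed by gate, while some glycolysis genes stood high in each. A score, the mean over the members of standardised log levels in thinned cells, was correlated with every other gene found in at least 1% of cells. In the keratin-high gate, the first 8 of 10916 genes were the glycolysis genes Aldoa (r = 0.27), Pgk1, Tpi1, Gapdh, Pkm and Pgam1 and the HIF targets Fam162a and Mif, followed by Tmem163 and Pthlh (r = 0.19). In the ATII gate the order began with Areg (an EGFR ligand, r = 0.22), S100a6 and Fn1, with Bsg, which encodes the chaperone of lactate transporters, among the first 10, and the glycolysis genes Aldoa and Tpi1 stood sixth and eighth of 10574. In the ATI gate Capn5 (r = 0.20), Rgs4 and Gapdh led, with Aldoa at rank 10 and Tpi1 at rank 12 of 10677. Gapdh stood at rank 16 in the ATII gate. Differences between the gates in these ranks were not tested. The r values are small in each case.

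The wider pathway lists, chosen with earlier results known, moved less evenly than their names. Of 19 further genes of glycolysis, 13 of the 18 with enough UMIs were at least 1.5-fold higher in keratin-high than in ATII-gate cells and 3 were lower, where 32.5% of all genes were higher and 15.4% lower. The largest ratios were Eno1b at 4.16 (3.24 to 5.34), the pyruvate kinase Pkm at 4.05 (3.98 to 4.12), Pfkfb3 at 3.62 (3.13 to 4.18) and, downward, the lactate dehydrogenase subunit Ldhb at 0.297 (0.279 to 0.317). Eno1b is the near-identical copy of Eno1, so its reads may not be told apart from those of Eno1. Their median log2 ratio was 1.07, beside 0.31 over all genes. Of 20 further HIF targets 7 were higher and 2 lower, a count near the share over all genes, and their median of 0.19 was below that of all genes. The largest ratios were those of Ndrg1 at 13.7 (12.8 to 14.6) and of the lipid-droplet protein Hilpda at 7.48 (6.95 to 8.05), but 10 of the 1183 keratin-high cells held 46.3% of the 1753 Hilpda UMIs there. Among the 8 genes of the HIF machinery none was higher, with Hif1a at 1.35 (1.29 to 1.41), and 2 counted as lower. These were Epas1, which encodes HIF-2α, at 0.240 (0.226 to 0.254), and Hif3a. Hif3a had 0 UMIs in keratin-high cells (a level of up to 0.000978) and stood at 0.00149 in the ATII gate. It met the minimum of 20 UMIs through the ATII gate alone, so its place in the count is a description only.

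Between the classes the median of the other glycolysis genes lay above that of all genes in each gate, and that of the other HIF targets did not, though among ungated cells without markers of other cell types it did, at 0.28 beside 0.19. In the ATII gate 4 of 18 other glycolysis genes were at least 1.5-fold higher in GFP-positive cells and 2 lower, where 13.0% of all genes were higher and 5.05% lower, with a median log2 ratio of 0.49 beside 0.18 over all genes. In the same gate 4 of 20 other HIF targets, whose median was 0.18, were higher, among them Ak4 at 2.33 (1.41 to 3.93) and Ndrg1 at 1.94 (1.69 to 2.22). Stc2 was the 1 counted as lower, with 0 UMIs in GFP-positive cells, which allows a level of up to 0.000632, against 0.0123 in Stk11-positive ones. It met the minimum of 20 UMIs through the Stk11-positive class alone, so its place in the count is a description only. In the keratin-high gate 3 of 17 glycolysis genes were higher and none lower, with a median of 0.32, and of 16 HIF targets 2 were higher and 2 lower, with a median of -0.08, where 11.9% of all genes were higher and 8.01% lower, with a median of 0.03. The 2 lower were Hilpda, at 0.458 against 1.45, a ratio of 0.315 (0.285 to 0.348), and Bhlhe40, a transcriptional repressor, at 1.04 against 2.13, a ratio of 0.487 (0.451 to 0.525). The Hilpda level rested on few cells: 10 of the 165 Stk11-positive cells held 77.6% of its 675 UMIs there and 10 of the 642 GFP-positive cells 52.7% of its 909, where for Bhlhe40 the shares were 29.5% and 9.40%. None of 7 HIF machinery genes reached 1.5-fold in either direction in these 2 gates. In the ATI gate 1 of 7 was lower (5.30% of all genes), Epas1 at 0.642 (0.507 to 0.812), which also stood at 0.619 (0.572 to 0.671) among ungated cells without markers of other cell types. Within the keratin-high gate, cells with a Slc16a3 UMI had 7 of 17 glycolysis genes at least 1.5-fold higher and 1 lower (3.55% and 6.10% of all genes), with Aldoc at 3.02 (2.29 to 3.98), Pfkp at 2.00 (1.78 to 2.25) and Pfkl at 1.81 (1.69 to 1.95), and 2 of 16 HIF targets higher, Ak4 at 8.51 (4.49 to 17.3) and Mif at 1.56 (1.504 to 1.610).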

How the data were processed

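Single-cell 3′ libraries (Chromium v3) of sorted tumour cells from 6 mice were processed by the authors with Cell Ranger against mm10, per the labels, and 1 pooled matrix of UMI counts per gene and cell was deposited; whether the counting used strand is not given in the sources used here. The counts are raw, and of 16017 cells 2081 had under 500 genes and 1753 more had over 20% mitochondrial UMIs. The 12183 kept cells had a median of 19348 UMIs and 4171 genes. Doublets were not called, and cells of very high depth were left out as an alternative.

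Levels are summed UMIs of a gene over summed UMIs of a group, times 10000, and genes are not compared with each other in level, since 3′ counts are not scaled by length. Intervals are exact Poisson (levels), exact conditional binomial (ratios) and Clopper-Pearson (shares), at 95%. With 1 sample there is no test; genes with at least 20 UMIs over both groups were counted at 1.5-fold. The code was tested on simulated data. Arrays and intervals were handled with scipy 1.17.1 and numpy 2.4.6, tables with pandas 2.3.3 and plots with matplotlib 3.10.9, under Python 3.11.15.

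The members, gates and lists were chosen with earlier results of these data known. All 10 members are named, and of each list up to 4 genes with the largest absolute log2 ratio; in a few lists fewer are named, and the genotype in full and some other items are not reported here. Feature IDs were matched to GENCODE M21 (30934 of 31055) and promoter windows came from RefSeq on GRCm38.p6. Alternatives changed the cell filters, the classes, the depth, the denominator, the gates and the cells kept.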

Additional observations from a re-analysis of the deposited data

How the results depend on the processing

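No paired analysis was possible because cells cannot be assigned to mice and no result comes from a test. The counts of members at least 1.5-fold higher in GFP-positive ATII-gate cells, in keratin-high over ATII-gate cells and in ATI-gate over ATII-gate cells kept within 1.5 times their value under each alternative (3 to 4, 4 to 6 and 2 to 3). The ATI-gate class count of 5 was 2 with cells thinned to 5000 UMIs, without the 6% deepest cells and with stricter gates, and 3 when thinned with classes from all UMIs, an alternative chosen after seeing the data. The keratin-high class count of 3 was 5 with stricter gates. Thinning both the levels and the classes took the Slc16a3 log2 ratio between classes from 2.95 to 3.89 in the ATII gate and from 1.56 to -0.045 in the keratin-high gate. With levels thinned and classes from all UMIs it was 2.92 and 0.68, and with stricter gates it was 1.05 in the keratin-high gate. The keratin-high over ATII log2 ratio of Slc16a3, 4.25, was 3.84 under both kinds of thinning, 3.95 without the 10 most abundant features in the denominator, Sftpc first among them, and 5.60 with stricter gates. Median correlations moved only when thinning was dropped. Slc16a3 at 5000 UMIs a cell rests on 8 to 81 UMIs per keratin-high class. With the classes thinned too, it rests on fewer than 20 UMIs over both ATII-gate classes. This depth thus limits its class comparison in both gates. With no mouse of origin, the spread between mice is not known for any value.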
